A study of Rattus norvegicus with 20 samples.

Results

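miR-21 (rno-miR-21 on the array) is 1 of the 348 miRNAs that carried the same name in every file of a rat nerve injury series, out of 350 on the array, and was followed here by that name over all 20 arrays. RNA had been hybridized to Agilent arrays of rat miRNAs in 1 colour, with 10 arrays from soleus, a calf muscle supplied by the sciatic nerve, and 10 from dorsal root ganglia (DRGs), the clusters of sensory neuron cell bodies beside the spinal cord. The tissues came from adult male Sprague-Dawley rats operated on the right sciatic nerve. In the denervation group the nerve was cut, a piece was taken out and the proximal stump was tied off and buried in thigh muscle, and tissue was taken at 6 months. In the entrapment group a silastic tube that does not constrict the nerve lay around it for 6 months. In the decompression group the tube was taken off after 6 months and tissue was collected 3 months later. Each of these 3 groups had 3 arrays per tissue, labelled as biological replicates, and the sham operation had 1 array per tissue. The methods name 3 rats for sham as well, and neither they nor the labels say whether the sham array held RNA of 1 rat or of several. The p-values against sham therefore assume that sham varies like the other groups.

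miRNAs are short RNAs cut from a hairpin precursor and loaded into an Argonaute protein, and the bases next to their 5′ end, the seed, pair with target mRNAs and lower their output. miR-21 is among the most widely expressed miRNAs of mammals and is known for rising in injured, inflamed and fibrotic tissue and in tumours. Its known targets include the mRNAs of Pdcd4, a brake on translation and growth, and the Sprouty proteins, brakes on signalling from growth factor receptors.

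The mature strand, the strand from the other arm of the hairpin, and the hairpin are shown because the array measures these strands with separate probes and only the first was detected. The sequences are those of RefSeq on the GRCr8 assembly, where the gene lies on the minus strand of chromosome 10. The hairpin covers chr10:71902600-71902691, the mature strand (5p) chr10:71902653-71902674 and the other strand (3p) chr10:71902615-71902636. No other gene in the RefSeq table overlaps the hairpin. Capitals mark the seed, bases 2 to 8, in both mature strands, and mark the 5p strand at positions 18 to 39 and the 3p strand at positions 56 to 77 in the hairpin of 92 bases.
rno-miR-21-5p: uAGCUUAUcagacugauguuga
rno-miR-21-3p: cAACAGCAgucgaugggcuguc
rno-mir-21 hairpin: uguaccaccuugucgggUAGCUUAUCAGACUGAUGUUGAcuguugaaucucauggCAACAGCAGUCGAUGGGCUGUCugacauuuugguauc
Among the 693 mature names of the RefSeq table for rat, miR-21-5p alone has the seed AGCUUAU, so miR-21 has no family member there by this measure. The array name miR-21 was taken as the 5p strand and miR-21* as the 3p strand.

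The soleus and DRG arrays carried the miRNAs of their tissues. On a scale common to both tissues, the summed signal of 5 muscle miRNAs (miR-1, miR-133a, miR-133b, miR-206 and miR-499) was 47965 to 299142 over the soleus arrays and 261 to 467 over the DRG arrays. The summed signal of 8 neuronal miRNAs was 126 to 240 in soleus, where miR-124, miR-9, miR-9*, miR-183 and miR-138 were detected on no array, and 4629 to 6371 in the DRGs. Brightness was taken as the 75th percentile of an array's signal over the miRNAs used for scaling, 108 in soleus and all 348 in the DRGs. It ran from 409 (sham) to 2539 in soleus and from 72.0 to 117 in the DRGs, and the 2 ranges cannot be compared. DRG brightness split by group. Entrapment arrays had 72.0 to 88.1 and decompression arrays 75.5 to 85.0, while sham had 99.7 and denervation arrays 97.5 to 117. Detected DRG miRNAs split likewise: 183 to 186 for entrapment, 187 to 200 for decompression, 233 for sham, 213 to 225 for denervation. The part of this split in the miR-21 contrasts was not tested. Of 45 control features, the unscaled signals of 12 in soleus and 24 in the DRGs did not overlap between a set of 4 arrays, sham and denervation, and a set of 6, entrapment and decompression. The contrasts of entrapment or decompression with sham or denervation lie across these sets. Between denervation and sham, which lie in the same set, 17 control features in soleus and 25 in the DRGs did not overlap. With a single sham array, many features fail to overlap by the order of the values alone, so these counts cannot show a difference.

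miR-21 was detected on 20 of 20 arrays, with a scanner error of 7.23 to 8.11% of its signal in soleus and 7.29 to 7.83% in the DRGs. miR-21* was detected on 0 of 20 arrays, and its background-subtracted signal lay between -5.69 and -0.168 in soleus and between -5.94 and -1.01 in the DRGs. All values for miR-21 below are thus those of the 5p strand. The miR-21* signal was lower on every entrapment and decompression array than on any sham or denervation array of the same tissue. Signals are arbitrary units scaled to the 75th percentile of each array within a tissue, and their levels are not set against those of other miRNAs.

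In soleus, miR-21 was higher than sham on all 9 injury arrays, as were 16.8% of the miRNAs tested there, and the 3 kinds of injury did not separate. Its scaled signal was 183 on the sham array. It was 2042, 1926 and 1415 on the denervation arrays (mean 1795 ± 334, SD, n = 3). It was 2992, 1531 and 2312 on the entrapment arrays (2278 ± 731, SD, n = 3). Every one of these 6 arrays lay far above sham, and the denervation and entrapment arrays overlapped. On the decompression arrays the scaled signal was 1639, 1478 and 2099 (1738 ± 322, SD, n = 3), within the range of the other injury arrays. The 9 injury arrays ran from 7.74 to 16.4 times the sham level. In increasing order of the mean the groups were sham, decompression, denervation and entrapment, and only sham stood apart from its neighbour.

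**Figure D1:**
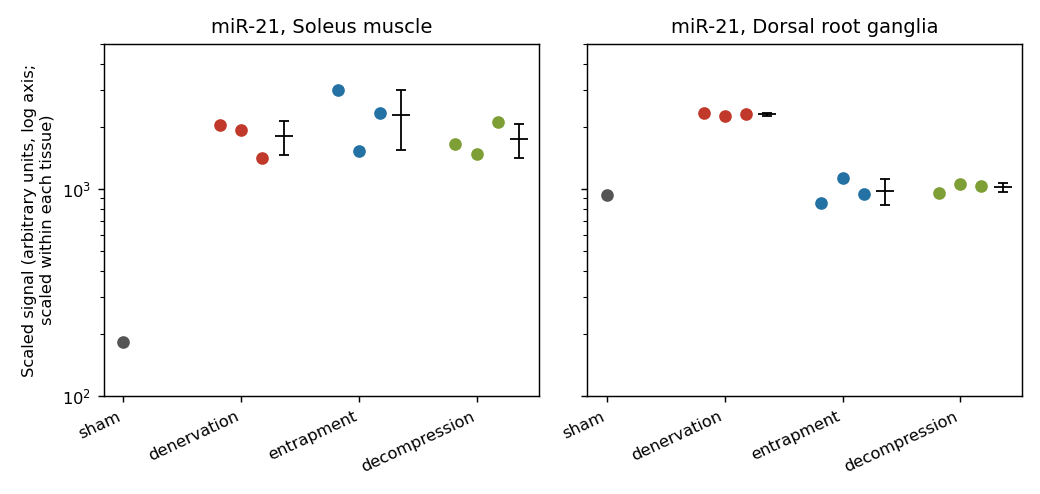
Scaled signal of miR-21 on each array (log axis, arbitrary units, scaled within each tissue) in sham, denervation, entrapment and decompression, for soleus on the left and DRGs on the right. Points are arrays and the black bars are the mean ± SD of 3 arrays; in soleus all injury arrays lie at 1415 or above against 183 for sham, and in the DRGs the 3 denervation arrays lie at 2255 or above against 856 to 1132 for the other 7.

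limma, fitted over all 173 miRNAs tested in soleus, gave 9.69-fold more miR-21 after denervation than in sham (95% interval 4.85 to 19.4, adjusted p = 0.000845). The entrapment level was 12.0-fold that of sham (6.01 to 24.0, adjusted p = 0.000374). The decompression level was 9.40-fold that of sham (4.70 to 18.8, adjusted p = 0.000627). On the log2 scale these differences were 3.28, 3.59 and 3.23, each with a standard error of 0.44, while the median over all tested miRNAs was -0.07, -0.37 and -0.29. limma called 11% of the tested miRNAs higher after denervation and 9.83% higher after entrapment and after decompression. Among all 173 miRNAs, called or not, miR-21 had the 5th highest log2 difference after denervation, the 2nd highest after entrapment and the 3rd highest after decompression. The denervation call was lost when only the groups compared were fitted (adjusted p = 0.0664), and all 3 calls were lost with the authors' processed values (adjusted p = 0.279, 0.106 and 0.503). The study itself reports no raised miRNA in soleus after entrapment or decompression, and miR-21 is not among those it lists after denervation.

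miR-21 was at least 2-fold above sham on each of the 3 arrays of all 3 injury groups. This rule called 15.6% of the tested miRNAs higher after denervation, 11% after entrapment and 13.3% after decompression, and 8.09% were at least 2-fold above sham on all 9 injury arrays. Ordered by the smallest log2 difference from sham over the 9 injury arrays, miR-21 was 2nd with 2.95, after miR-126* with 3.74 and before miR-322 with 2.82 and miR-26b with 2.61. miR-126*, the passenger strand of an endothelial miRNA, was not detected on the sham array, so its value depends on the detection floor, whereas miR-21 was measured on both sides.

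All 3 soleus contrasts share the 1 sham array, which had the lowest brightness. Before scaling, the miR-21 signal was 68.5 on the sham array and 535 on denervation 3, an array of nearly the same brightness (75th percentile 413 against 409). That pair alone thus differed 7.81-fold without any scaling. On the other 8 injury arrays the unscaled signal lay higher, up to 4769. The files of the sham array and of denervation 1 and 2 share a layout that the other soleus files do not have, and without denervation 1 and 2 the log2 difference of denervation from sham was 2.95. That value sets 1 array against 1, so its adjusted p of 0.0192 from limma takes the spread wholly from the entrapment and decompression arrays.

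**Figure D2:**
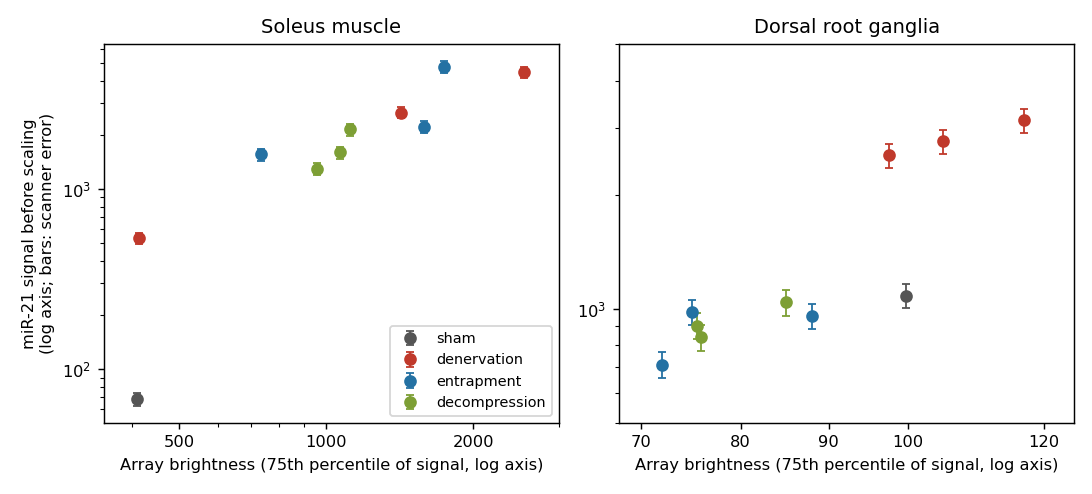
Signal of miR-21 before scaling (vertical axis, arbitrary units, log) against the brightness of the array (horizontal axis, log), for soleus on the left and DRGs on the right. Brightness is the 75th percentile of signal over the miRNAs used for scaling, a different set in each tissue. Each point is an array with its scanner error; the soleus sham array (68.5) and denervation 3 (535) have nearly the same brightness, and in the DRGs the sham array (1082) lies below the denervation arrays (2542 to 3146) at a brightness within their range.

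Between the soleus injury groups no difference in miR-21 passed the test. Entrapment minus denervation was 0.31 on the log2 scale (95% interval -0.40 to 1.02, adjusted p = 0.616 in limma). Decompression minus denervation was -0.04 (-0.75 to 0.66, adjusted p = 0.933), and decompression minus entrapment was -0.35 (-1.06 to 0.35, adjusted p = 1). With limits as far out as 1.02 and -1.06, these intervals do not show the groups to be alike. An exact permutation test over the 280 ways of forming the 3 injury groups, which does not use sham, gave F = 0.864 and p = 0.425 (one-sided, smallest possible p 0.00357). In the same fit, limma called 11.6% of the miRNAs lower after entrapment than after denervation and 12.7% lower after decompression than after denervation, and miR-21 was in neither list.

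In the DRGs, miR-21 was higher after denervation and near sham after entrapment and decompression. Its scaled signal was 939 on the sham array. It was 2330, 2255 and 2285 on the denervation arrays (2290 ± 37.8, SD, n = 3). It was 856, 1132 and 940 on the entrapment arrays (976 ± 142, SD, n = 3), on both sides of sham. The decompression arrays had 957, 1058 and 1035 (1017 ± 52.8, SD, n = 3), slightly above sham and inside the entrapment range. The highest of these 7 arrays, with 1132, lay far below the lowest denervation array, with 2255. In increasing order of the mean the groups were sham, entrapment, decompression and denervation, and only denervation stood apart.

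limma over the 219 miRNAs tested in the DRGs gave 2.44-fold more miR-21 after denervation than in sham (95% interval 1.92 to 3.09, log2 1.29 with a standard error of 0.15, adjusted p = 0.00511). This was the highest log2 difference and the lowest p of all 219. limma called 0.457% of the tested miRNAs higher in this contrast, which is miR-21 itself, and the 2-fold rule on each array also called only miR-21 higher. The study singled out miR-21 from these same DRG arrays, so this p is not independent evidence for it. The study's PCR, which was not used here, gave a larger rise in the DRGs after denervation. The median difference of all tested miRNAs was -0.02.

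miR-21 was 2.36-fold lower after entrapment than after denervation (log2 -1.24, standard error 0.11, adjusted p = 4.06e-05 in limma) and 2.25-fold lower after decompression than after denervation (log2 -1.17, adjusted p = 5.77e-05). In these contrasts limma called 32.9% and 27.9% of all tested miRNAs lower, so the call was a common one. The gap between the arrays was wide. The lowest denervation array lay 0.99 log2 units above the highest of the other 7 arrays, the largest such gap among the 219, followed by miR-146b with 0.46, miR-322 with 0.45 and miR-221 with 0.43. In all, 11.4% of the tested miRNAs had their 3 denervation arrays above the other 7. The unscaled signals of 11 of the 45 control features also parted the denervation arrays from the other 7, in either direction, and their part in the result was not tested. The exact permutation test over the 3 injury groups gave F = 90.3 and p = 0.0214 (one-sided, 280 groupings).

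Against sham, the entrapment difference of miR-21 in the DRGs was 0.05 on the log2 scale (95% interval -0.30 to 0.39, adjusted p = 0.870 in limma) and the decompression difference was 0.11 (-0.23 to 0.46, adjusted p = 0.574). Decompression minus entrapment was 0.07 (-0.18 to 0.31, adjusted p = 1). These intervals leave out a 2-fold change in either direction. Before scaling, the DRG signal of miR-21 was 1082 on sham, 2542 to 3146 after denervation, 712 to 981 after entrapment and 840 to 1039 after decompression, so the denervation arrays stood apart without scaling as well.

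**Figure D3:**
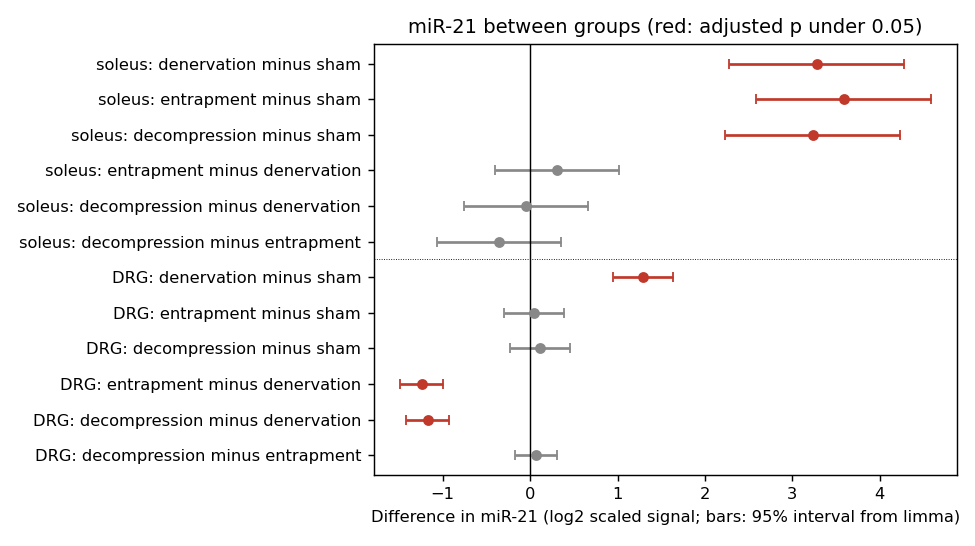
Difference in miR-21 between each pair of groups (log2 scaled signal, horizontal axis), with soleus above the dotted line and DRGs below it. Points are limma estimates and bars their 95% intervals, in red where the adjusted p is under 0.05; in soleus the 3 contrasts with sham are red, and in the DRGs the 3 contrasts with denervation are red.

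**Figure D4:**
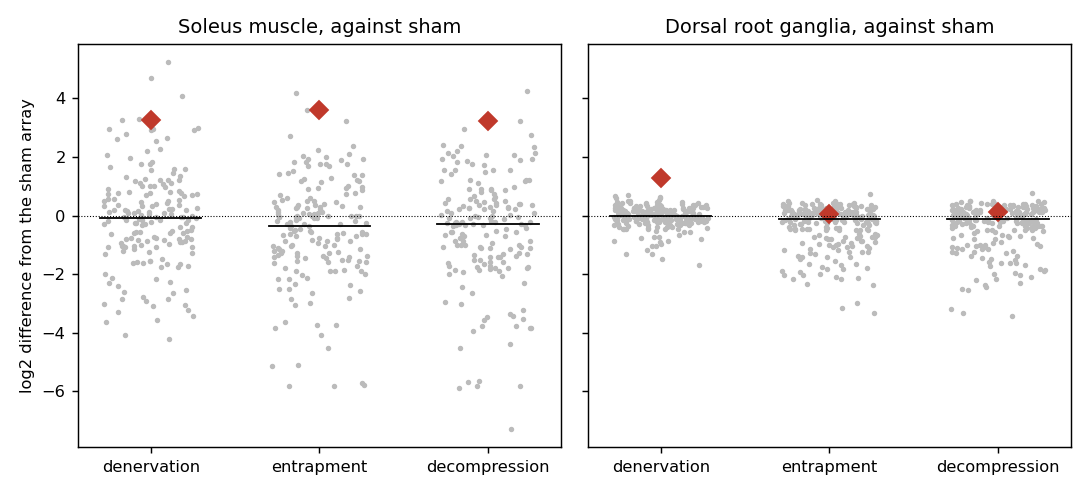
log2 difference from the sham array (vertical axis) of every tested miRNA (grey points, 173 in soleus on the left and 219 in DRGs on the right) after denervation, entrapment and decompression, with miR-21 as a red diamond and the median as a black line. miR-21 lies near the top in all 3 soleus columns and is the top point of the DRG denervation column, while it lies near 0 in the other DRG columns.

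The difference between the tissues was tested directly in a limma fit over all 20 arrays and the 162 miRNAs tested in both. By the methods both tissues came from the 3 rats of a group, so arrays of the 2 tissues may share rats. The fit took them as independent, and deviations of same-numbered arrays of the 2 tissues correlated from -0.26 to 0.24. The difference of denervation from sham was smaller in the DRGs than in soleus by 1.99 log2 units (interaction -1.99, adjusted p = 0.00611), where limma called 9.26% of the miRNAs lower. For entrapment minus sham the interaction was -3.54 (adjusted p = 5.32e-05, 9.88% called lower), and for decompression minus sham it was -3.12 (adjusted p = 0.000135, 11.1% called lower). These 3 values share both sham arrays. The contrast of entrapment with denervation, which does not use sham, also differed, with an interaction of -1.55 (adjusted p = 0.0382), and miR-21 made up the 0.617% called lower. That call was lost in 10 of the 18 fits that left out 1 injury array, in which the adjusted p ran from 0.00295 to 0.125. For decompression minus denervation the interaction was -1.13 (adjusted p = 0.0809), which did not pass.

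Levels of miR-21 in the 2 tissues were set side by side on a scale common to all 20 arrays. On this scale soleus had 155 in sham, 1501 ± 291 after denervation, 1831 ± 613 after entrapment and 1419 ± 266 after decompression (SD, n = 3 each). The DRGs had 1045 in sham, 2513 ± 116 after denervation, 1168 ± 103 after entrapment and 1214 ± 13.6 after decompression. The sham soleus array was thus the lowest of the 20 and the DRG denervation arrays were the highest as a group. Averaged over groups, DRG minus soleus was 0.68 on the log2 scale (standard error 0.14, adjusted p = 0.000298 in limma), where 63.9% of the 230 miRNAs tested were called higher and the median over them was 1.06. Without the soleus sham array the difference was -0.15 (adjusted p = 0.297), so its direction rested on that array, and on the scaling: with the 75th percentile over all miRNAs it was -0.12 (adjusted p = 0.423).

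The miRNAs with the pattern most like miR-21 differed between the tissues, apart from miR-26b. In soleus the 5 highest Pearson correlations over the 10 arrays were those of miR-26b (r = 0.947), miR-196a (0.914), miR-152 (0.903), miR-872 (0.880) and miR-322 (0.865). The points share the sham array, and without it the values were 0.179, 0.504, 0.606, 0.816 and -0.604 over 9 arrays. Of the 5, miR-872 alone stayed above 0.8 without sham, and the height of the other correlations depended on the sham array. Without sham 1 and entrapment 1, the arrays farthest from the median of miR-21, r was 0.687 for miR-26b, 0.767 for miR-196a, -0.063 for miR-152, 0.920 for miR-872 and -0.506 for miR-322. miR-152 and miR-872 were not detected on the sham array. miR-872 was detected on 2 of 3 denervation, 3 of 3 entrapment and 2 of 3 decompression arrays.

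miR-26b, a member of a family known to restrain the cell cycle, had a scaled soleus signal of 194 in sham, 1209 to 1763 after denervation, 1184 to 1443 after entrapment and 1223 to 1370 after decompression. Its log2 differences from sham in limma were 2.92, 2.73 and 2.75 (adjusted p = 0.000465, 0.000374 and 0.000333). miR-322, a relative of miR-16 known from muscle differentiation, differed from sham by 2.96, 3.23 and 3.37 (adjusted p = 0.000845, 0.000374 and 0.000301). As with miR-21, every injury array lay above sham for both, as for 16.8% of the miRNAs tested in soleus. Both were picked by a correlation with miR-21 that depended on the same sham array, so their p-values against sham are not independent evidence. The study, by contrast, lists miR-26b among the soleus miRNAs lowered after entrapment. It also lists miR-148b-3p, miR-30b-5p, miR-1 and miR-133a as lowered after entrapment and decompression. Here miR-148b-3p, not detected in sham, and miR-30b-5p lay at least 1.79 and 1.24 log2 units above sham on all 9 injury arrays. miR-1 was higher than sham (1.39 and 1.55) and miR-133a lower (-1.91 and -1.57), none of them called. The rest of the study's list was not compared as a set.

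In the DRGs the 5 highest correlations with miR-21 over the 10 arrays were those of miR-221 (r = 0.977), miR-26a (0.940), miR-352 (0.917), miR-30e* (0.909) and miR-26b (0.908). Without sham they were 0.983, 0.943, 0.980, 0.909 and 0.913. Here the points fall into the 3 denervation arrays and the 7 others, which all these miRNAs share. Without denervation 1 and denervation 3, the arrays farthest from the median of miR-21, the values were 0.945, 0.906, 0.868, 0.799 and 0.814 over 8 arrays, with 1 denervation array left. miR-221, known for growth and vascular roles, had 38.5 in sham, 51.8 to 55.0 after denervation, 34.3 to 38.3 after entrapment and 36.4 to 38.5 after decompression. In limma its entrapment level differed from denervation by -0.56 (adjusted p = 0.00042) and its decompression level by -0.53 (adjusted p = 0.000572). As miR-221 is described here for its correlation with miR-21 over these same arrays, these p-values are not independent evidence. Against sham its denervation difference of 0.48 did not pass (adjusted p = 0.0901).

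A list of 8 other miRNAs known to respond to tissue injury was read beside miR-21. Of these, 7 were on the array and 4 were tested in soleus. miR-223, a myeloid miRNA, rose after denervation (log2 1.34, adjusted p = 0.049 in limma), and 0 of the 4 passed limma's test after entrapment or decompression against sham, or had an unadjusted p under 0.05. The list's median difference from sham was 0.51, 0.13 and 0.10 in these 3 groups, against -0.07, -0.37 and -0.29 for all miRNAs. In the DRGs limma called 0 of the 6 tested between denervation and sham (median 0.31, all miRNAs -0.02). There 2 had an unadjusted p under 0.05, miR-221 higher (0.48) and miR-34a lower (-0.47). Between entrapment and denervation 1 of 6 was higher, miR-34a, a p53 target (0.66, adjusted p = 0.000825, 8.22% of all miRNAs called higher), and 2 were lower, miR-221 and miR-222. The same 3 were called in these directions between decompression and denervation, where 8.68% of all miRNAs were called higher. The 2 of 6 called lower stand against 32.9% and 27.9% of all miRNAs in these contrasts. Against sham, miR-222 was the 1 of 6 called after entrapment and after decompression, lower in both, where 17.4% and 16.4% of all miRNAs were called lower. miR-222, which lies in the same cluster as miR-221, was not detected on any entrapment array, so only a bound exists for its level there.

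The miR-29 family, which lowers collagen mRNAs and is known as antifibrotic, is often set against miR-21 in fibrosis. In soleus 0 of its 3 members were called by limma after denervation against sham, and 2 had an unadjusted p under 0.05, miR-29a (log2 -0.79) and miR-29c (-0.93), both lower. miR-29b was higher than sham by 1.75 on the log2 scale in entrapment (adjusted p = 0.0382 in limma) and by 1.86 in decompression (adjusted p = 0.0283), with the other 2 not called, against 9.83% of all miRNAs called higher in each of these contrasts. In the DRGs limma called 0 of 3 between denervation and sham, the contrast in which miR-21 rose. There 2 had an unadjusted p under 0.05, miR-29a (0.27) and miR-29c (0.35), both higher. limma called 2 of 3 higher than sham after entrapment (2.28% of all miRNAs) and 3 of 3 after decompression (1.83%), where miR-21 stayed near sham.

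Because both tissues are mixtures of cells, fewer cells of a type and less RNA per cell cannot be told apart, and miRNAs of other cell types were read beside miR-21. In soleus the endothelial pair was higher than on the single sham array, as miR-21 was, and miR-126* also differed between injury groups. miR-126 was higher than sham by 1.64, 1.90 and 1.93 on the log2 scale after denervation, entrapment and decompression, and 2 of 2 endothelial miRNAs were called higher in all 3 contrasts, against 11%, 9.83% and 9.83% of all miRNAs. miR-126*, the other of the pair, was detected on all 9 injury arrays and not on the sham array. Against denervation, miR-126* was lower after entrapment (log2 -1.03, adjusted p = 0.0393 in limma) and decompression (-0.99, adjusted p = 0.0413). limma called 11.6% and 12.7% of all miRNAs lower in these contrasts, but neither miR-21 nor miR-126. The summed endothelial signal on the common scale was 323 in sham and 974 to 1247, 890 to 1422 and 1037 to 1455 in the injury groups. Its part in the miR-21 result was not tested.

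The sums of the other lists did not lie above sham on every soleus injury array. The summed signal of 5 fibroblast and mesenchymal miRNAs was 2948 in sham and 1546 to 2596 over the injury arrays, which lie below it. Its members went both ways against sham. miR-199a-3p was higher in all 3 groups (log2 2.20, 1.83 and 1.17, adjusted p = 0.00424, 0.0101 and 0.0497 in limma). miR-145 was lower after entrapment (-1.90, adjusted p = 0.0129) and decompression (-1.57, adjusted p = 0.0256), and miR-199a-5p was lower after decompression (-1.79, adjusted p = 0.0484). Of all miRNAs, limma called 15%, 19.7% and 22% lower than sham after denervation, entrapment and decompression. The leukocyte sum was 695 in sham, 521 to 843 after denervation, 359 to 466 after entrapment and 339 to 474 after decompression. The red blood cell sum was 1054 in sham and 167 to 1982 over the injury arrays, on both sides of it. The muscle sum was 175901 in sham, 84266 to 299142 after denervation, 47965 to 98420 after entrapment and 84596 to 88086 after decompression, below sham on every entrapment and decompression array. Of that list, miR-133b was lower than sham in all 3 groups (log2 -1.99, -2.14 and -1.75, adjusted p = 0.0167, 0.0119 and 0.025 in limma) and miR-1 was higher after denervation (3.00, adjusted p = 0.0358). The glial sum was 91.7 in sham and 44.0 to 173 over the injury arrays, and miR-219-5p of that list was lower after denervation (-1.76, adjusted p = 0.0257). The part of these changes in the miR-21 result was not tested.

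In the DRGs limma called 0 members of the cell type lists between denervation and sham. At an unadjusted p under 0.05 there were 3 of 8 neuronal miRNAs, all lower (miR-124 -0.38, miR-128 -0.42 and miR-138 -0.39). At the same cut there were 2 of 2 glial miRNAs, both higher (miR-219-5p 0.65 and miR-338 0.54), and 0 in the other cell type lists. The share of all miRNAs at this cut is not given, so such counts, here and for the injury and miR-29 lists, cannot be read as a result about a list. The neuronal sum was 5593 in sham, 4629 to 5115 after denervation, 5801 to 6263 after entrapment and 5470 to 6371 after decompression. It was thus lowest after denervation. The study's in situ hybridization, which was not used here, found strong miR-21 signal in DRG neurons after denervation. The sum of the myelinating glia miRNAs was 8884 in sham, 12217 to 13354 after denervation, 13076 to 14181 after entrapment and 11614 to 13243 after decompression. The leukocyte sum after denervation, 891 to 1384, covered the sham value of 1142, and the fibroblast sum, 1380 to 1577, covered that of 1435. The leukocyte sum was 768 to 945 after entrapment and 1019 to 1295 after decompression. The endothelial sum was 690 in sham and 646 to 713 after denervation. The red blood cell sum was 3341 in sham and lower on every denervation array, 801 to 1630, while it was 1059 to 3629 after entrapment and 1670 to 5316 after decompression. Neither miRNA of that list passed limma's test between denervation and sham (miR-144 -1.68, adjusted p = 0.353, and miR-451 -1.48, adjusted p = 0.361). Against denervation, limma called 3 of 5 leukocyte and 1 of 2 glial miRNAs lower after entrapment, and 0 of either after decompression. In both contrasts it called 4 of 8 neuronal miRNAs higher and 1 lower. Lower in both were 1 of 5 fibroblast miRNAs, miR-145 (log2 -1.09 and -1.19), and 1 of 2 endothelial miRNAs, miR-126* (-1.67 and -1.66). Of all miRNAs, 32.9% and 27.9% were called lower in these contrasts and 8.22% and 8.68% higher. The part of the cell type lists in the miR-21 result was not tested.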

How the data were processed

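Per the file headers and labels, the authors used Agilent Feature Extraction 9.5.3 and deposited 1 intensity per miRNA and array, its total gene signal after background subtraction with no normalization between arrays, and a detection call. They also deposited a value table, whose miR-21 values equal the intensity divided by a number that differs between arrays and whose 6 DRG entrapment and decompression columns match scanner files of the other group. It served as an alternative. The labels describe Cy3-CTP amplification and the methods pCp-Cy3 ligation, and the methods were followed.

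Intensities were divided by the 75th percentile of their array (taken in soleus from the 108 miRNAs detected throughout, in the DRGs from all 348), raised to a detection floor (2.72 in soleus, 2.28 in the DRGs) and log2-transformed. miRNAs detected on at least 3 of 10 arrays were tested with limma 3.58.1 in R 4.3.3, group as the only term, two-sided, Benjamini-Hochberg at 0.05 over all miRNAs tested, with 6 contrasts per tissue. A common fit over 20 arrays tested the tissues, scaled within tissue for the interactions and over the 102 miRNAs detected on all arrays for levels. The methods' 2-fold rule was asked of each array. limma was tested on simulated data. The number of arrays limits the precision.

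Named miRNAs are miR-21, those sharing its seed, the 5 most correlated per tissue, and members of the lists named in the text. miR-146b, miR-148b-3p and miR-30b-5p were named after their values were seen. The members and lists were chosen with earlier results of these data known. Alternatives were scaling, filter, pseudocount, variance trend, samples in the fit, replicate block and leaving out each array. Spinal cord arrays and the study's PCR and in situ data were not used here.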

Additional observations from a re-analysis of the deposited data

Results flagged for a closer look

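In 4 contrasts the change of miR-21 differed between the tissues by a limma test of the difference itself. The DRG change minus the soleus change was -1.99 log2 units for denervation minus sham, -3.54 for entrapment minus sham, -3.12 for decompression minus sham and -1.55 for entrapment minus denervation. The first 3 share the single sham array of each tissue. The last was lost in 10 of the 18 fits that left out 1 injury array and kept its call in 11 of all 24 alternatives. Control features also parted sham and denervation from entrapment and decompression, 12 of 45 in soleus and 24 of 45 in the DRGs. Denervation did not overlap sham for 17 of 45 in soleus and 25 of 45 in the DRGs. Set against a single sham array, these last counts cannot show a difference. The part of the control features in the 4 contrasts was not tested.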

How the results depend on the processing

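The DRG contrasts of miR-21 kept their side of the threshold in all 21 alternatives each, leaving out each injury array in turn included, as did the soleus contrasts between injury groups in 22 each. Among these, the processed values set the DRG entrapment and decompression labels on arrays whose scanner files carry the other label. Which label is right cannot be told from these data. Denervation minus sham in the DRGs ran from 1.11 to 1.40 on the log2 scale (adjusted p 0.000698 to 0.037 in limma), and from 1.27 to 1.30 leaving out 1 array. In soleus the authors' processed values gave 5.21 (adjusted p = 0.279), 5.78 (0.106) and 3.95 (0.503) for denervation, entrapment and decompression against sham, so no call remained, and 2 of 3 decompression arrays were at least 2-fold above sham. In that table decompression 2 was divided by 1222 and the other arrays by 38.7 to 100. With only the groups compared in the fit, denervation minus sham kept 3.28 (adjusted p = 0.0664) with fewer arrays to estimate the spread. Leaving out 1 array gave 3.17 to 3.44, 3.36 to 3.85 and 3.09 to 3.34 for the 3 soleus contrasts with sham. The interactions lost their call as follows, and the cause was not tested. With processed values they were -3.82 for denervation, -5.61 for entrapment and -3.85 for decompression against sham and -1.79 for entrapment minus denervation. Without scaling they were -3.38 for denervation minus sham and -2.14 for entrapment minus denervation, which was -1.01 with quantile normalization. Leaving out 1 array, entrapment minus denervation ran from -1.81 to -1.33, and decompression minus denervation from -1.24 to -0.97, called in 2 of 18 fits. The latter was also called with median scaling (-1.28, adjusted p = 0.0487) and the 75th percentile over all miRNAs (-1.62, adjusted p = 0.00321). DRG minus soleus was 0.55 without scaling, 0.20 with median scaling and -0.12 with the percentile over all miRNAs, and -0.15 to 0.81 leaving out 1 array. Of the 5 most alike miRNAs, Spearman correlation kept 2 in each tissue, leaving out sham kept 1 in each, and no scaling kept 3 in the DRGs.

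The replicate numbers did not pair the arrays throughout: deviations of same-numbered arrays correlated from -0.12 to 0.48 in the DRGs and from -0.47 to 0.21 in soleus. Of these pairs, 4 of 9 in the DRGs and 1 of 9 in soleus were over 0.1. The DRG pairs of replicate 1 ran from 0.26 to 0.44, so shared handling of these arrays stays possible. With the number as a replicate block, denervation minus sham was 1.21 in the DRGs (adjusted p = 0.0367 in limma) and 3.47 in soleus (adjusted p = 0.0077), and no call of miR-21 changed.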
